A study of Mus musculus with 9 samples.

Results

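*Dlk1*, *Meg3*, *Rtl1*, *Rian* and *Mirg* are imprinted genes that lie next to each other on mouse chromosome 12 (GRCm38, chr12:109452823-109749460), and they are 5 of the 55471 genes counted in the series. They were selected on measured values of these data: among imprinted genes, the KO level was below the WT level by 2-fold or more in each, and the KO_PAPC level exceeded the KO level by as much. Their values in these 2 contrasts are therefore given as a description, without a test. The contrast of KO_PAPC with WT was not used to choose them and was tested, although it rests on the same libraries. Genes around the locus were taken by position alone.

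The libraries were made from embryoid bodies (EBs), which are clumps of early differentiating embryonic stem (ES) cells. WT EBs came from E14 mouse ES cells, KO EBs from Tnfaip2-/- cells of the same line, a single CRISPR clone with a premature stop in exon 2, and KO_PAPC EBs were Tnfaip2-/- EBs supplemented with palmitic acid and palmitoyl-L-carnitine at 8 μM each. All EBs formed in hanging drops for 3 days and were harvested after 3 further days on gelatin-coated dishes, and each group had 3 libraries that the study describes as biological replicates. The study's methods name ES cell medium for the drops of EBs without the fatty acids but MEF medium for those formed with them. If these libraries were made that way, fatty acids and medium cannot be told apart in KO_PAPC. A figure legend of the study gives the Tnfaip2-/- EBs compared with KO_PAPC a vehicle control, which the sample titles do not name. A group that received the fatty acids without the knockout was not analysed here, and the knockout cannot be told apart from other differences between the single clone and the parental cells.

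The locus is a textbook imprinted domain. Methylation of an intergenic control region on the paternal chromosome, placed between *Dlk1* and *Meg3*, separates the parental copies: *Dlk1*, *Rtl1* and the more distant *Dio3* are transcribed from the paternal chromosome, and the noncoding RNAs *Meg3*, *Rian* and *Mirg* from the maternal one. DLK1 is a transmembrane protein related to the Notch ligands that acts outside the canonical pathway, RTL1 is a protein derived from a retrotransposon that is known for its role in the placenta, *Rian* hosts box C/D snoRNAs and *Mirg* hosts a large cluster of miRNAs. The noncoding genes are known to be silenced in some ES and induced pluripotent cell lines.

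Depth was even, with 27362913 to 28914312 counts per library. Levels are given as CPM, counts put on a common library scale with TMM size factors, which were about 1.04 in WT and KO and between 0.9209 and 0.9265 in KO_PAPC. Changes were spread over the whole transcriptome. By edgeR at an adjusted p under 0.05, KO differed from WT in 73.8% of 17355 tested genes, being higher in 36.8% and lower in 37.1%. KO_PAPC differed from KO in 81.8% of 17167 genes, with 39.6% higher and 42.2% lower, and from WT in 70.6% of 16655, with 34.2% higher and 36.4% lower. The 3 libraries of a group did not overlap with the 3 of the other for 75.3%, 82.2% and 72.6% of the tested genes in these contrasts. Scaling by library totals in place of TMM shifted all tested genes down, by a median log2 fold change of 0.17 between KO_PAPC and KO, where 5323 calls were then upward and 8677 downward against 6801 and 7246 with TMM. Between KO_PAPC and WT it lowered the median by 0.16, with 3631 upward and 8334 downward calls against 5693 and 6067.

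*Tnfaip2*, the targeted gene, was close to the detection floor. It had 6 to 16 counts in the WT libraries, 5 to 8 in KO and 14 to 25 in KO_PAPC, and the WT and KO libraries overlapped. KO_PAPC, of the same knockout genotype, held the most and in CPM did not overlap either group, at a log2 fold change of 1.72 ± 0.36 (SE) over KO (edgeR adjusted p = 5.49e-05) and 0.95 ± 0.34 over WT (edgeR adjusted p = 0.0164). A premature stop need not lower the RNA, so these counts do not check the genotype labels. The gene lies on the same chromosome, 1.69 Mb beyond the end of *Mirg*.

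*Meg3* (ENSMUSG00000021268, chr12:109541001-109571726, plus strand), the long noncoding RNA at the start of the maternally expressed unit, had the most counts of the 5 genes in WT. The WT libraries held 13776, 14483 and 14081 counts, the KO libraries 4478, 4429 and 4416, and the KO_PAPC libraries 10487, 11182 and 11117. The WT mean was 485.5 ± 17.9 CPM (SD, n = 3), the KO mean 150.0 ± 2.78 and the KO_PAPC mean 427.5 ± 17.9. All 3 KO libraries were low, the KO_PAPC libraries lay near but below every WT library, and no groups overlapped. The log2 fold change was -1.70 ± 0.03 (SE) for KO against WT and 1.51 ± 0.03 for KO_PAPC against KO.

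The promoter of *Meg3* is shown because the upstream end of the noncoding unit is where its transcription starts. It is taken from RefSeq (GRCm38.p6, chr12:109540746-109541045, plus strand), from 250 bases before to 50 bases after the transcript start, and its capitals mark matches to either of 2 motifs searched on both strands, TGCCGC, the core that the imprint-protecting factor ZFP57 binds when methylated, and TGACGTCA, the cAMP response element.

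Meg3 promoter: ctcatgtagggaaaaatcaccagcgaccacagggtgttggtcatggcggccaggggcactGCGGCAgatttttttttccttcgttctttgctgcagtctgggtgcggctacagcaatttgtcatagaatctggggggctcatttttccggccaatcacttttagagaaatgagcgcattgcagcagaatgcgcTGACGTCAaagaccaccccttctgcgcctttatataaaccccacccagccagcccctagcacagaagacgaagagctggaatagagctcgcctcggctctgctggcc

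TGCCGC matched once, in reverse, beginning 190 bases before the start, and TGACGTCA once, beginning 57 bases before it. Of 32851 promoters of this length, 11.6% held TGCCGC and 1.79% held TGACGTCA. A match is a description of letters and not a binding site. The promoter held 13 CpG pairs, against a median of 7 over all promoters.

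*Rian* (ENSMUSG00000097451, chr12:109603940-109661716, plus strand) contains 13 annotated snoRNA genes in its span. Counts were 12902, 11986 and 12181 in WT, 4552, 4693 and 4898 in KO and 12223, 11388 and 11503 in KO_PAPC, or 424.8 ± 10.9, 159.2 ± 5.07 and 457.7 ± 14.9 CPM (SD, n = 3). The KO libraries lay far below all others, and in CPM the KO_PAPC libraries lay above the WT libraries. The log2 fold change was -1.42 ± 0.03 (SE) for KO against WT and 1.52 ± 0.03 for KO_PAPC against KO. The RefSeq window of *Rian* (chr12:109603695-109603994, plus strand), shown for contrast with that of *Meg3*, held no CpG pair and neither motif.

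Rian promoter: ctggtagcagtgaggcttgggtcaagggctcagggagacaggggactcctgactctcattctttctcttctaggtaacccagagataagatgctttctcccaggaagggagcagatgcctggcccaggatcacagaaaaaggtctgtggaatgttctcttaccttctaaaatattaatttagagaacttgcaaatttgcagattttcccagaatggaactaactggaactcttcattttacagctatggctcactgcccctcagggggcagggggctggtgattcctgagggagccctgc

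*Mirg* (ENSMUSG00000097391, chr12:109729764-109749460, plus strand), the host transcript at the distal end, had 2297, 2251 and 2294 counts in WT, 781, 742 and 756 in KO and 2121, 2217 and 2144 in KO_PAPC. The WT mean was 78.4 ± 1.10 CPM (SD, n = 3), the KO mean 25.65 ± 0.605 and the KO_PAPC mean 84.5 ± 2.73. As for *Rian*, the KO libraries were low and the KO_PAPC libraries lay slightly above every WT library. The log2 fold change was -1.61 ± 0.04 (SE) for KO against WT and 1.72 ± 0.04 for KO_PAPC against KO.

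*Dlk1* (ENSMUSG00000040856, chr12:109452823-109463336, plus strand), the paternally expressed gene at the proximal end, was weakly expressed. Counts were 158, 131 and 150 in WT, 54, 51 and 72 in KO and 130, 114 and 95 in KO_PAPC, or 5.03 ± 0.435, 1.99 ± 0.353 and 4.42 ± 0.678 CPM (SD, n = 3). The KO libraries lay below all others, and the WT and KO_PAPC libraries overlapped. The log2 fold change was -1.34 ± 0.13 (SE) for KO against WT and 1.15 ± 0.15 for KO_PAPC against KO. The RefSeq promoter of *Dlk1* (chr12:109452573-109452872, plus strand), shown beside that of *Meg3* because the genes are expressed from opposite parental copies, held 9 CpG pairs and neither motif.

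Dlk1 promoter: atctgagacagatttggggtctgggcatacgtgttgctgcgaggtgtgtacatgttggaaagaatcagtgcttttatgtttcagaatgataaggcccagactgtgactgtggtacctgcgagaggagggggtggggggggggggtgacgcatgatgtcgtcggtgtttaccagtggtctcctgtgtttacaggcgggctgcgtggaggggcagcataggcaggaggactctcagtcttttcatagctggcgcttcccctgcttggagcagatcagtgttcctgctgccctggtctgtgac

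*Rtl1* (ENSMUSG00000085925, chr12:109589193-109600330, minus strand) is the only member on the minus strand. Counts were 169, 150 and 150 in WT, 57, 67 and 44 in KO and 203, 174 and 193 in KO_PAPC. In CPM these were 5.37 ± 0.298 (SD, n = 3), 1.90 ± 0.420 and 7.43 ± 0.512. It was the gene whose KO_PAPC libraries stood farthest above WT, and no groups overlapped. The log2 fold change was -1.51 ± 0.13 (SE) for KO against WT and 1.97 ± 0.13 for KO_PAPC against KO.

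The level of *Rtl1* is uncertain because the libraries did not keep the strand of the RNA. A maternally expressed antisense transcript crosses the same stretch and carries miRNAs that are fully complementary to *Rtl1*, and 6 annotated miRNA genes on the opposite strand cover 8.12% of its exon bases. All 11 mature sequences that RefSeq (GRCm38.p6) places on the opposite strand within *Rtl1* were found as exact complements in its annotated transcripts. A representative from each of 3 of these precursors is shown, with the seed (bases 2 to 8) in capitals.

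miR-127-3p: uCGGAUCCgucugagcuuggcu
miR-136-5p: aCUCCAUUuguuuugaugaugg
miR-433-3p: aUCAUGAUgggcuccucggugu

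These lie on the plus strand at chr12:109592888-109592909, chr12:109595331-109595352 and chr12:109591781-109591802. Their 3 seeds differ. Reads of *Rtl1* mRNA and of its antisense RNA cannot be told apart in these counts.

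**Figure D1:**
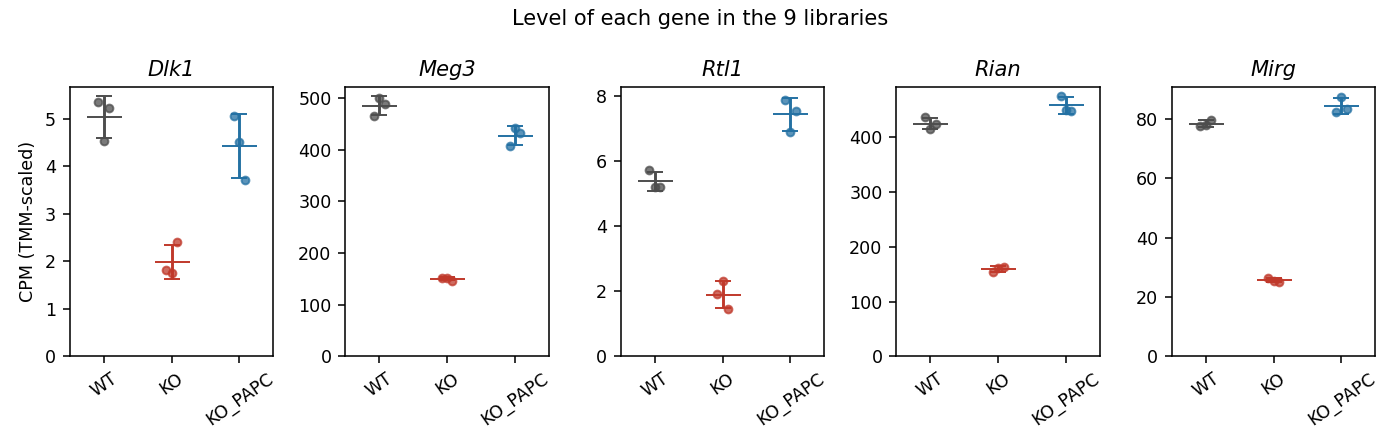
Level of the 5 genes in CPM (TMM-scaled, linear axes from 0) in WT, KO and KO_PAPC; each point is 1 library, the horizontal line the mean and the bar the SD of 3 libraries. In all 5 panels the KO libraries lie below the WT and KO_PAPC libraries, and *Rtl1* in KO_PAPC (7.43 CPM) lies above WT (5.37 CPM).

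As a share of WT, the KO levels of the 5 genes lay close together. The KO mean was 30.9% ± 0.57 (SD, n = 3) of the WT mean for *Meg3*, 32.7% ± 0.77 for *Mirg*, 35.3% ± 7.8 for *Rtl1*, 37.5% ± 1.2 for *Rian* and 39.5% ± 7.0 for *Dlk1*. With PA/PC the shares were 87.9% ± 13.5 for *Dlk1*, 88.1% ± 3.7 for *Meg3*, 107.7% ± 3.5 for *Rian*, 107.8% ± 3.5 for *Mirg* and 138.2% ± 9.5 for *Rtl1*. The maternally expressed *Meg3*, *Rian* and *Mirg* were thus low in KO and higher in KO_PAPC. On the paternal side this rests on *Dlk1*, at 51 to 72 counts a library in KO. Reads of *Rtl1* may include its maternally expressed antisense RNA. *Dio3*, also paternally expressed, did not share the pattern, at 3 to 20 counts a library. Its log2 fold change was 0.49 from WT to KO (not called) and -1.59 from KO to KO_PAPC. In these bulk samples, fewer cells with the transcripts and less RNA per cell cannot be told apart, and the parental copies were not separated. Because they were chosen for it, all 5 were lower in KO by 2-fold or more, as were 6.9% of all tested genes, and all 5 were higher in KO_PAPC than in KO by as much, as were 9.4%.

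Among 44 imprinted genes tested in both contrasts, these 5 and 39 others, 9 were on that side of the threshold. Taking for each gene the smaller of its fall and its rise on the log2 scale, *Dlk1* was just inside at 1.15 and *Kcnq1ot1*, the antisense RNA of another imprinted domain, just outside at 0.84. With library totals in place of TMM the rise of *Dlk1* was 0.979, so its place inside rests on the scaling. The other 4 inside were *Mest*, *Calcr*, *Grb10* and *Nnat*, which lie at other loci.

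KO_PAPC was compared with WT to ask how far the levels under PA/PC differed from those of wild-type EBs. *Rtl1* was higher in KO_PAPC. Its log2 fold change was 0.46 ± 0.09 (SE, n = 3 per group, adjusted p = 0.000129 by edgeR), with a 95% interval from 0.26 to 0.65. *Meg3* was lower, at -0.19 ± 0.03 (adjusted p = 5.8e-06, interval -0.26 to -0.13). Neither direction changed under any alternative run, and with library totals the values were 0.29 and -0.36.

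*Rian* and *Mirg* were each slightly higher in KO_PAPC, by 0.10 ± 0.03 on the log2 scale (edgeR adjusted p = 0.00441) and 0.10 ± 0.04 (adjusted p = 0.0154). Both turned to -0.07 with library totals (edgeR adjusted p = 0.0511 and 0.109), so their direction rests on the scaling. The call of *Mirg* was also lost without the second WT library (log2 fold change 0.09, adjusted p = 0.051) and without the second KO_PAPC library (0.07, adjusted p = 0.0953).

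*Dlk1* was not called different, at -0.20 ± 0.12 (edgeR adjusted p = 0.145), and the interval from -0.44 to 0.05 does not show that the groups were alike. It was called lower with library totals (-0.36, adjusted p = 0.009) and without the first KO_PAPC library (-0.30, adjusted p = 0.0355). In all, 4 of the 5 genes were called, 3 higher and 1 lower, beside 70.6% of all tested genes.

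**Figure D2:**
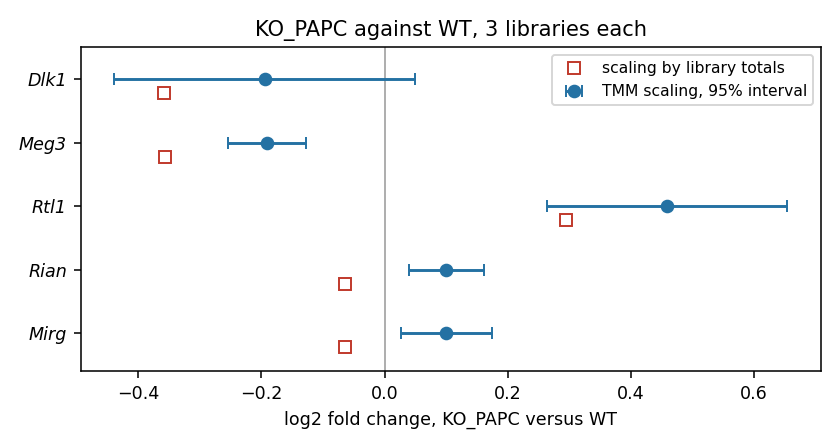
Log2 fold change of KO_PAPC versus WT, from the fit of 3 against 3 libraries; circles with bars give the TMM estimate and its 95% interval, and open squares the estimate with library totals. *Rtl1* (0.46) stays right of 0 under both scalings and *Meg3* (-0.19) left of it, while *Rian* and *Mirg* (0.10) cross from right to left.

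Ratios between the genes within a library do not depend on the scaling. *Meg3* had 1.14 ± 0.07 counts per *Rian* count in WT (SD, n = 3), 0.943 ± 0.041 in KO and 0.935 ± 0.068 in KO_PAPC. Every WT library lay above every KO and KO_PAPC library, and KO and KO_PAPC overlapped. *Mirg* had 18.5 ± 0.58 counts per 100 *Rian* counts in WT, 16.1 ± 0.91 in KO and 18.5 ± 1.07 in KO_PAPC. Here KO lay below both other groups. KO_PAPC thus overlapped KO in the *Meg3* ratio and WT in the *Mirg* ratio.

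*Rtl1* had 12.6 ± 0.41 counts per 1000 *Rian* counts in WT, 11.9 ± 2.7 in KO and 16.2 ± 0.82 in KO_PAPC, where all libraries lay above those of the other groups. The ratio of *Dlk1* to *Rtl1*, the paternally expressed genes, was 0.936 ± 0.063 in WT, 1.115 ± 0.461 in KO and 0.596 ± 0.090 in KO_PAPC. The KO_PAPC libraries lay below all WT and KO libraries, which overlapped each other. The ratios are descriptions and were not tested.

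**Figure D3:**
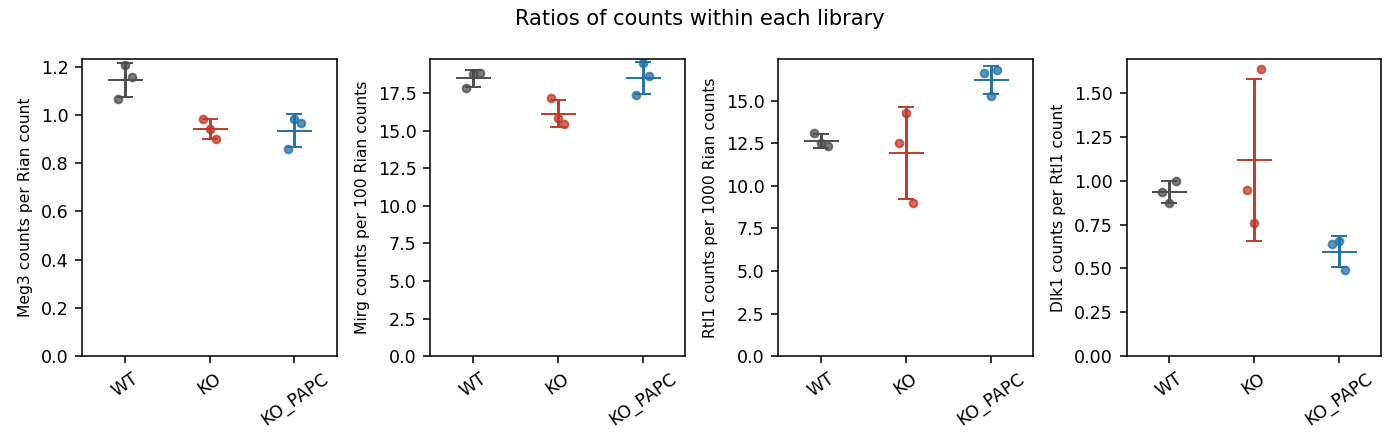
Ratios of counts between genes of the locus within each library (linear axes from 0); points are libraries, horizontal lines means and bars the SD of 3. *Meg3* per *Rian* is highest in WT (1.14), *Rtl1* per 1000 *Rian* is highest in KO_PAPC (16.2), and *Dlk1* per *Rtl1* is lowest in KO_PAPC (0.596).

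Per kilobase of annotated exon (RPKM), the noncoding genes stood far above the coding ones in every group. In WT the order was *Meg3* at 26.8 ± 0.99 RPKM (SD, n = 3), *Rian* at 23.3 ± 0.60, *Mirg* at 10.8 ± 0.15, *Dlk1* at 0.889 ± 0.077 and *Rtl1* at 0.845 ± 0.047. In KO it was *Rian* at 8.73 ± 0.28, *Meg3* at 8.29 ± 0.15, *Mirg* at 3.52 ± 0.083, *Dlk1* at 0.352 ± 0.062 and *Rtl1* at 0.298 ± 0.066. In KO_PAPC it was *Rian* at 25.1 ± 0.82, *Meg3* at 23.6 ± 0.99, *Mirg* at 11.6 ± 0.38, *Rtl1* at 1.17 ± 0.081 and *Dlk1* at 0.781 ± 0.120. *Dlk1* and *Rtl1* overlapped in WT and KO but not in KO_PAPC, where *Rtl1* was higher. *Meg3* lay above *Rian* in every WT library, their ranges met at 8.41 RPKM in KO, and *Rian* was higher in KO_PAPC by little more than the spread. The lengths are unions of annotated exons, and 10.4% of the 51-base words of *Meg3* transcripts also occur in other genes, so these levels are approximate.

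From *Dlk1* to *Mirg* the annotation lists 102 genes, of which 66 are miRNA and 23 snoRNA genes. Only the 5 members passed the filter on low counts. The others held 249 counts in all over the 9 libraries, and 61 of the 102 held none. The libraries were made with a kit for long polyadenylated RNA, so mature miRNAs and snoRNAs were not measured. The highest were *Mir3072*, with sums over 3 libraries of 23 counts in WT, 8 in KO and 23 in KO_PAPC, and *B830012L14Rik*, a noncoding RNA, with 19, 8 and 25.

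The miRNAs hosted by these transcripts are what the maternal unit is best known for. RefSeq places 112 mature miRNAs from 60 precursors in the stretch, and 26 from 14 precursors lie within *Mirg* on its strand. Among 102 distinct seeds, 10 were shared by at least 2 precursors. The pairs below are shown because each joins precursors of the cluster by an identical seed, in capitals.

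miR-379-5p: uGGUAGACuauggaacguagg
miR-1193-5p: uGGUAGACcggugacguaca
miR-379-3p: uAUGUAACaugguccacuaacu
miR-411-3p: uAUGUAACacgguccacuaacc

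The first pair shares GGUAGAC and the second AUGUAAC. They lie between *Rian* and *Mirg* on the plus strand, miR-379 from chr12:109709065-109709085 to chr12:109709102-109709123, miR-411-3p at chr12:109710225-109710246 and miR-1193-5p at chr12:109715716-109715735. A further pair lies within *Mirg* itself.

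miR-496a-5p: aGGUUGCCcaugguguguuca
miR-453: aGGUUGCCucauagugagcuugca

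Both share the seed GGUUGCC and lie in *Mirg* introns, at chr12:109739132-109739152 and chr12:109735669-109735692. Whether the mature miRNAs followed the host transcripts was not measured here.

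To ask whether the differences ended at the locus, genes within 1 Mb on either side were read from the same fits. Of the genes tested, those on the proximal side, before *Dlk1*, were mostly lower in KO. There, 9 of 10 were called lower in KO and 0 higher, with a median log2 fold change of -0.74, beside 37.1% of all genes called lower. Past *Mirg*, 2 of 8 were called higher and 3 lower in KO, with a median of 0.01. Under DESeq2 8 of 16 genes on the proximal side were called lower and 0 higher. Without the first WT library 8 of 10 were called lower and 0 higher. Without the filter on low counts, 9 of 16 were called lower and 1 higher.

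In KO_PAPC versus KO, all 9 genes tested before *Dlk1* were called higher, with a median log2 fold change of 0.64, beside 39.6% of all genes. With library totals 7 of 9 were called higher and with DESeq2 7 of 15, and 0 were called lower in either. Without the filter, 9 of 15 were called higher and 1 lower. *Gm47980*, tested in KO versus WT, did not pass the filter here, with 10 counts in each KO library and 1, 6 and 6 in KO_PAPC. Past *Mirg*, 1 of 9 was called higher and 3 lower, or 0 and 4 with library totals. Over both sides this gave 10 higher and 3 lower, or 7 and 4 with library totals. The KO libraries enter both of these contrasts. Against WT, 2 of 10 genes before *Dlk1* were higher in KO_PAPC and 4 lower, and past *Mirg* 1 of 7 was higher and 2 lower. Over all tested genes in this contrast, 34.2% were higher and 36.4% lower.

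*Begain*, which encodes a protein of the postsynaptic density, was the nearest tested gene before *Dlk1*, 384.6 kb away. Its WT libraries held 193, 177 and 160 counts, the KO libraries 36, 35 and 30, and the KO_PAPC libraries 123, 143 and 119. The groups KO and WT did not overlap, nor did KO and KO_PAPC. From WT to KO its log2 fold change was -2.42 ± 0.14 (SE, edgeR adjusted p = 3.07e-17), a larger fall than the point estimate of any of the 5 members (a difference not tested), and 2.13 ± 0.15 in KO_PAPC versus KO (adjusted p = 1.94e-15). In KO_PAPC versus WT it was -0.28, a call that 9 of 13 alternatives kept.

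*Wdr25*, the next tested gene, was at 12.2 ± 0.55 CPM in WT and 8.03 ± 0.33 in KO (log2 fold change -0.61, edgeR adjusted p = 3.44e-09), and stood at 10.8 ± 1.36 in KO_PAPC. *Eml1*, a microtubule-associated protein 913.2 kb from *Dlk1*, fell from 17.3 ± 0.86 to 8.56 ± 0.31 CPM (log2 fold change -1.01, adjusted p = 1.74e-15) and was 18.7 ± 1.67 in KO_PAPC. *Slc25a29*, a mitochondrial amino acid carrier, had a log2 fold change of -0.95 ± 0.19 from WT to KO and 1.26 ± 0.19 from KO to KO_PAPC. The poorly characterised transcripts *Gm34220* and *Gm47980* had -0.76 and -0.90 in KO versus WT, the latter at 10 to 23 counts a library in WT and KO and inside *Wdr25*, so that their reads are hard to separate. The exception before *Dlk1* was *Yy1*, a zinc finger transcription factor, at -0.02 in KO versus WT, named after its value was seen.

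*Dio3*, the thyroid hormone deiodinase at the far end of the imprinted domain, was sparsely detected and was not called between KO and WT. It had 12, 11 and 9 counts in WT, 15, 20 and 11 in KO and 5, 5 and 3 in KO_PAPC. WT and KO overlapped (log2 fold change 0.49, edgeR adjusted p = 0.18), and KO_PAPC was lower than KO (-1.59 ± 0.42, adjusted p = 0.000762). It did not pass the filter in KO_PAPC versus WT. *Ppp2r5c*, the next gene, which encodes a regulatory subunit of a protein phosphatase, had 219.9 ± 6.35, 181.2 ± 3.33 and 203.9 ± 1.88 CPM in WT, KO and KO_PAPC (log2 fold change -0.28 in KO versus WT, adjusted p = 1.45e-11). The noncoding *B930059L03Rik* was at -1.03 ± 0.20 in KO versus WT (adjusted p = 2.63e-05) and was not called in KO_PAPC versus KO (0.21, adjusted p = 0.463).

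**Figure D4:**
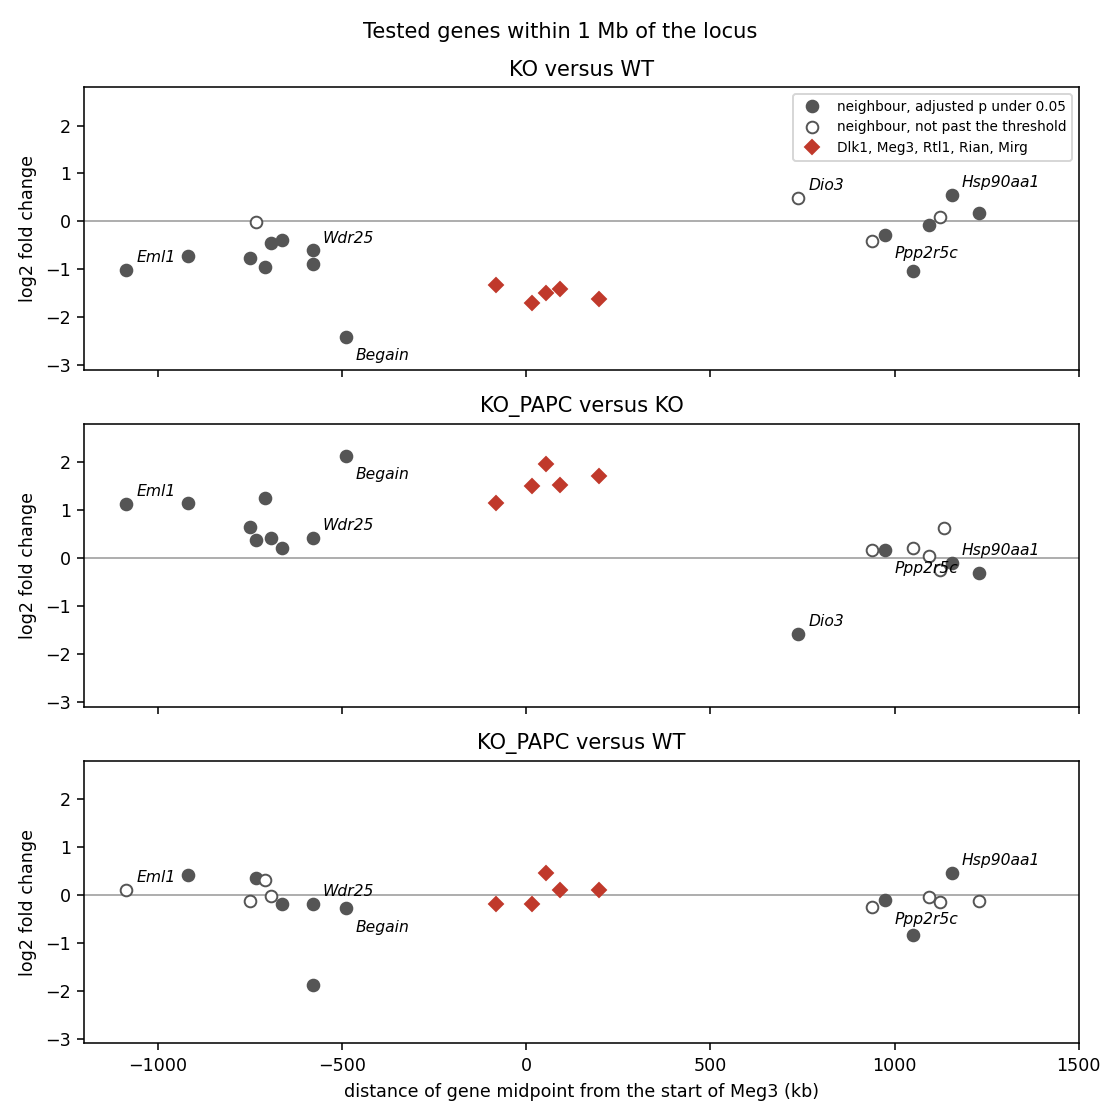
Log2 fold change of tested genes within 1 Mb of the locus against the distance of the gene's midpoint from the start of *Meg3* (kb), in the 3 contrasts; diamonds are the 5 members, filled circles neighbours called at an adjusted p under 0.05 and open circles those not called. Before *Dlk1*, 9 of 10 neighbours are called lower in KO versus WT and 9 of 9 higher in KO_PAPC versus KO, and *Dio3* has a log2 fold change of -1.59 in the latter.

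The rest of chromosome 12 was read in the same fits. Without the 5 members, the median log2 fold change of its tested genes was -0.18 when KO was set against WT (626 genes, 150 called higher and 314 lower). It was 0.32 in KO_PAPC versus KO (630 genes, 352 and 163) and 0.11 in KO_PAPC versus WT (603 genes, 257 and 152). The medians of all tested genes were -0.01, -0.02 and -0.02. Of all tested genes, 36.8% were called higher and 37.1% lower in the first contrast. The shares were 39.6% and 42.2% in the second and 34.2% and 36.4% in the third. The part of the chromosome in the values of the locus was not tested.

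Regulators that act on imprints and DNA methylation were called in both directions. Of 26 factors for DNA methylation or its removal, imprint protection and Polycomb repression, 16 were called higher and 8 lower in KO. Over all tested genes in KO versus WT, 36.8% were higher and 37.1% lower. The median log2 fold change of the 26 was 0.09. Between KO_PAPC and KO, 12 were higher and 12 lower, beside 39.6% and 42.2% of all tested genes. *Dppa3*, which guards methylation in the early embryo and restrains UHRF1, had 11.2 ± 0.41, 35.2 ± 1.89 and 3.92 ± 0.28 CPM in WT, KO and KO_PAPC (log2 fold change 1.65 for KO against WT and -3.17 for KO_PAPC against KO). *Tet2*, an enzyme that oxidises 5-methylcytosine, went from 83.7 ± 0.86 to 138.4 ± 0.94 and 89.8 ± 1.87 CPM, and *Atrx*, a chromatin remodeller, from 283.2 ± 18.9 to 477.4 ± 9.91 and 279.3 ± 13.6 CPM. These 3, which had the largest changes of the list in KO versus WT, were highest in KO. Other members of the list were lowest in KO and highest in KO_PAPC. *Dnmt3b* had 209.6 ± 3.35, 144.3 ± 1.23 and 670.2 ± 9.63 CPM in WT, KO and KO_PAPC, and *Dnmt3a* 321.1 ± 3.63, 201.6 ± 2.39 and 627.3 ± 7.80 CPM.

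Genes of the Notch pathway, to which DLK1 is related, were read in the same way. Of 24 tested, 6 were higher and 11 lower in KO than in WT, beside 36.8% and 37.1% of all tested genes. Of 25 tested, 16 were higher and 6 lower in KO_PAPC than in KO, beside 39.6% and 42.2%. The ligand *Dll1* had 14.6 ± 0.78, 5.15 ± 0.32 and 24.3 ± 0.85 CPM in WT, KO and KO_PAPC. The target *Hes1* had 69.6 ± 0.69, 33.6 ± 0.29 and 102.9 ± 2.36 CPM, and the receptor *Notch3* 92.6 ± 3.74, 45.7 ± 1.12 and 89.1 ± 4.05 CPM. All 3 were lowest in KO, and their log2 fold changes in KO versus WT were -1.51, -1.05 and -1.02. The receptors *Notch1* and *Notch4* were instead highest in KO. *Notch1* had 24.1 ± 0.66, 46.7 ± 2.49 and 17.3 ± 1.82 CPM in WT, KO and KO_PAPC, and *Notch4* 26.7 ± 1.58, 35.5 ± 0.66 and 15.3 ± 1.29 CPM.

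Of the other imprinted genes, 18 of 41 tested were higher and 14 lower in KO than in WT, and 17 of 39 were higher and 17 lower in KO_PAPC than in KO. The largest changes in KO versus WT were those of *Mest* (113.2 ± 3.27 CPM in WT, 1.12 ± 0.39 in KO, 140.4 ± 2.99 in KO_PAPC), *Calcr* (4.50 ± 0.22, 0.887 ± 0.174 and 12.4 ± 0.37) and *Grb10* (977.8 ± 11.7, 219.8 ± 4.46 and 749.3 ± 14.7). The counts in KO versus WT, 18 higher and 14 lower of 41, stood beside 36.8% and 37.1% of all tested genes. Those in KO_PAPC versus KO, 17 and 17 of 39, stood beside 39.6% and 42.2%.

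Markers of cell types differed between the groups too, and their part in the levels of the locus was not tested. The summed level of 9 neuroectoderm markers ranged from 437.2 to 442.7 CPM in WT, from 344.8 to 348.0 in KO and from 664.6 to 673.6 in KO_PAPC. Of 8 tested, 5 were lower and 3 higher in KO than in WT, and 6 were higher and 0 lower in KO_PAPC than in KO. Over all tested genes, 37.1% were lower and 36.8% higher in the first contrast, and 39.6% higher and 42.2% lower in the second. *Sox1*, a marker of the early neural plate, had 68.8, 17.8 and 129.5 CPM in the 3 groups, *Pax6* 22.8, 5.28 and 40.0 CPM and *Nes* 29.1, 14.5 and 51.8 CPM. Like *Rtl1*, these 3 were lowest in KO and highest in KO_PAPC. So was *Otx2*, which had the highest level of the list in every group and so weighed most in the sum (209.1, 182.6 and 304.9 CPM). *Sox3*, *Ncam1* and *Tubb3* were instead lowest in WT. Their log2 fold changes in KO versus WT were 0.303, 0.344 and 0.245.

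The other marker lists are given beside these, and the same shares of all tested genes stand beside their counts. The 8 pluripotent stem cell markers summed to 2632 to 2658 CPM in WT, 3686 to 3712 in KO and 2803 to 2841 in KO_PAPC. Between KO and WT, 6 of 8 were higher in KO and 1 lower. *Nanog* (369.4, 749.0 and 310.6 CPM), *Zfp42* and *Klf4* were highest in KO. *Pou5f1* (656.9, 669.2 and 912.3 CPM) and *Sall4* were instead highest in KO_PAPC, and *Fgf4* was lowest in KO. Between KO_PAPC and KO, 3 of 8 were higher in KO_PAPC and 5 lower. The 9 primitive and visceral endoderm markers summed to 239.4 to 251.7, 163.2 to 168.4 and 28.2 to 29.5 CPM. Between KO and WT, 7 were lower in KO, among them *Gata6* and *Sox7*. The 2 higher in KO were *Afp* (4.56, 10.6 and 1.24 CPM in WT, KO and KO_PAPC) and *Ttr*. All 9 were lower in KO_PAPC than in KO. The 8 mesoderm markers summed to 72.5 to 77.0, 47.5 to 47.8 and 56.6 to 59.8 CPM, and their members went different ways. Of 7 tested, 2 were higher in KO than WT and 4 lower, and 4 were higher in KO_PAPC than KO and 3 lower. *T* had 1.83, 0.281 and 16.7 CPM in WT, KO and KO_PAPC, *Eomes* 33.3, 21.7 and 31.5 CPM and *Pdgfra* 34.0, 12.8 and 2.53 CPM. The 8 trophoblast markers summed to 89.4 to 91.1, 320.7 to 328.7 and 56.4 to 57.4 CPM, with *Tfap2c* at 51.8, 283.0 and 29.7 and *Krt18* at 34.1, 30.5 and 23.1, while *Prl3d1*, a marker of trophoblast giant cells, was at 0 in every library. The 8 fibroblast markers summed to 8.48 to 9.10, 15.6 to 17.3 and 12.2 to 13.9 CPM, with *Lum* and *Twist2* at 3 counts or fewer and *Thy1* at 4.21, 11.1 and 5.21 CPM.

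Genes most like each member were found by the root mean square distance of log2 CPM, centred on the WT mean, over the 9 libraries, among 17670 other genes. For *Meg3* they were *Has2* (distance 0.07), *Odf3b* and *Rnf217*. *Has2*, a hyaluronan synthase, had 26.3 ± 0.87, 7.73 ± 0.16 and 22.9 ± 0.23 CPM in the 3 groups. For *Rian* they were *Tenm4*, *Fndc4* and *Car4*, and for *Mirg* *Dtx3* (distance 0.06), *Fras1* and *Lrfn4*. For *Dlk1* they were *Gm27477*, *Gm27010* and *Panx2*, and for *Rtl1* *Metrn* (distance 0.13), *Setbp1* and *Lefty1*.

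None of these 15 lies on chromosome 12. The members were not each other's nearest genes. *Rian* was 11th in likeness to *Mirg* among 17674 genes, at a distance of 0.13, and *Mirg* 23rd to *Rian* and 31st to *Meg3*. *Rtl1* was the member most distant from *Dlk1* (1349th), *Meg3* (429th) and *Rian* (228th). From *Mirg* it was *Dlk1* (205th), with *Rtl1* 159th. The distance counts the spread of low counts as well as the pattern, and with 3 groups many genes share a pattern.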

How the data were processed

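RNA from 9 EB cultures, 3 each of WT, KO and KO_PAPC, was sequenced by the authors as single-end reads of 51 cycles with an unstranded TruSeq RNA v2 kit. The deposited values are counts per gene, whole numbers and not normalised, which the authors made with STAR 2.7.2b and featureCounts 1.6.5 on GRCm38 per the labels. Reads mapping to several places or genes were not counted. The study's methods describe another aligner and annotation release for its own comparison of KO with WT, while the labels name STAR for all 9 libraries. Symbols and exon lengths came from GENCODE M21 of the same build, and 241 of 55471 IDs had no match. No column of per-sample values was left out (0 unused).

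Groups came from the sample titles. Each contrast was fitted on its own 6 libraries with edgeR 4.0.16 in R 4.3.3 (TMM size factors, filterByExpr, quasi-likelihood test, two-sided, Benjamini-Hochberg over all tested genes, called at an adjusted p under 0.05). SE and 95% intervals come from the same fit. RPKM is CPM per kilobase of exon. Neighbours were genes touching a window of 1 Mb on either side of the locus.

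Alternatives were DESeq2 1.42.0, RLE size factors, library totals, 2 other filters, a joint fit, a replicate block and leaving out each library. The members, lists and tests were chosen with earlier results of these data known. Genes named were the members, *Dio3*, the nearest 2 tested neighbours on each side, 5 further neighbours and, per list, 3 genes of at least 5 CPM by the largest absolute log2 fold change in KO versus WT, 3 genes nearest to each member, and *Tnfaip2*. Further genes of some lists were named after their values were seen. Sequences came from RefSeq (GRCm38.p6), where promoters of *Dlk1*, *Meg3* and *Rian* and 112 mature miRNAs matched. Every pair of replicates differed by more than sampling noise.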

Additional observations from a re-analysis of the deposited data

How the results depend on the processing

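The alternatives changed no direction of the 5 genes in KO versus WT or KO_PAPC versus KO. Leaving out each library gave log2 fold changes in KO versus WT from -1.49 to -1.25 for *Dlk1* and -1.67 to -1.35 for *Rtl1*. In KO_PAPC versus KO, library totals lowered *Meg3* to 1.34, *Rian* to 1.36 and *Mirg* to 1.55. They lowered *Dlk1* to 0.979, below the 2-fold threshold by which the members were chosen. In KO_PAPC versus WT, library totals gave -0.36 for *Dlk1*, past the threshold, and -0.065 for *Rian* and *Mirg*, a turned direction that was no longer past it. These shifts are the scaling itself. Leaving out each library gave -0.302 to -0.079 for *Dlk1*, past the threshold without the first KO_PAPC library, and 0.074 to 0.118 for *Mirg*, not past it without the second WT library (0.09) or the second KO_PAPC library (0.074). The cause was not tested. *Meg3* (-0.22 to -0.16), *Rtl1* (0.41 to 0.51) and *Rian* (0.07 to 0.12) kept their calls.

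Replicate numbers were not taken to pair the libraries, since the correlation of deviations of same-numbered libraries ranged from -0.04 to 0.06. A replicate block gave 12587, 13822 and 12223 called genes in the 3 contrasts against 12813, 14047 and 11760, and 14, 13 and 11 neighbours against 14, 13 and 9. Low counts, as for *Dio3* and *Gm47980*, limit what could be detected there.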
